A study of Mus musculus with 4 samples.

Results

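Of the 41000 autosomal CTCF summits called in mouse calf muscle from both pools together, 2854 (6.96%) lay outside every annotated gene body and more than 100 kb from the nearest protein-coding gene start. They were taken from the deposited conservative peak list, with the summit as the position and GENCODE M21 on mm10 (GRCm38) as the annotation. The other summits were 13536 intergenic ones at most 100 kb from such a start, which serve as the comparison, and 24610 inside gene bodies. The far summits thus made up 17.4% of the 16390 intergenic summits. Their median distance to a coding start was 196225 bp (quartiles 137278 and 319213 bp), 296 lay over 500 kb away, 54 over 1 Mb away, and the farthest was 2194808 bp away.

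The chromatin came from gastrocnemius, the large calf muscle, of adult female B6CASTF1/J mice aged 2 months, an F1 cross between a laboratory strain and the wild-derived CAST strain. CTCF was precipitated in 4 libraries. Both pool E and pool F combined 2 tissue samples and gave 2 technical replicates. All libraries share strain, sex, age and antibody, so the study held no treated or mutant group and the comparisons here are between classes of sites. Technical replicates were merged before peaks were called, reads were placed on mm10 alone so that the 2 parental alleles were not told apart, and the mix of muscle fibres and other cells in the tissue was not separated.

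CTCF recognises a long, directional DNA motif through an array of zinc fingers. Cohesin, a ring that extrudes DNA loops, tends to stop at CTCF sites whose motifs point toward the incoming loop, and many loops therefore join convergent motifs. Long gene-poor stretches often flank genes of development and of neuronal adhesion; some carry distant enhancers, and CTCF sites in them can limit or assist the contact between enhancer and promoter.

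The letters under the summits show how close these sites are to the CTCF core consensus, a motif of 14 bases in which some positions allow a pair of letters. Each line gives 60 bases of mm10 from the reference genome in the motif's own direction, 5′ to 3′, with the best core match in capitals. The first 3 are from the 10 strongest far summits and hold a match with 1 or 2 mismatches; they lie at chr4:9097219-9097278 (minus strand), chr13:71458554-71458613 (plus) and chr4:62764186-62764245 (minus).
Chd7 to Clvs1: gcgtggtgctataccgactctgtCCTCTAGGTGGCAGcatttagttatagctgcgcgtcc
Adamts16 to Irx1: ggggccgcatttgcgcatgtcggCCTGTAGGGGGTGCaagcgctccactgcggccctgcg
Rgs3 to Zfp618: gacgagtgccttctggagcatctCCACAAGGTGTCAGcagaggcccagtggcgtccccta
The next 3 are the strongest far summits without a match, whose closest stretch has 3 mismatches, at chr7:136489110-136489169 (plus), chr13:15759265-15759324 (minus) and chr15:41973447-41973506 (minus).
Mki67 to Mgmt: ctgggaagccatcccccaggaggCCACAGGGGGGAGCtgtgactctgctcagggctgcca
Gli3 to Inhba: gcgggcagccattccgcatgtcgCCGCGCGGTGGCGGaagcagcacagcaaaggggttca
Abra to Angpt1: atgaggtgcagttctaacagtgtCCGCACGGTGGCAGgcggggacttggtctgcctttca
Below are 3 of the 5 summits farthest from a coding start, with 0, 1 and 1 mismatches, at chr14:90433310-90433369 (plus), chr1:48708778-48708837 (plus) and chr11:38938246-38938305 (plus).
Pcdh20 to Pcdh9: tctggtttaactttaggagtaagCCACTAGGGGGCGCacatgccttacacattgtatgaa
Slc39a10 to Tmeff2: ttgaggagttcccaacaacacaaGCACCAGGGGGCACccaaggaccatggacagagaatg
Tenm2 to Mat2b: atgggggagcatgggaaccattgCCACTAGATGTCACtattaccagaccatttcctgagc
The final one, chosen after the values were seen, is an exact core match outside repeats without a summit, at chr1:102378763-102378822 (minus); it is among the unbound exact sites farthest from a coding start.
Cntnap5b to Cdh20: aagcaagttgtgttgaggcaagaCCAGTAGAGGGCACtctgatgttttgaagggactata

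Far intergenic sequence was sparsely bound. It spans 665 Mb outside assembly gaps and carried 4.29 summits per Mb, against 23.7 per Mb over the 571 Mb of intergenic sequence within 100 kb of a coding start. The ratio was 0.181, with an exact 95% counting interval of 0.174 to 0.188. All 19 autosomes had fewer far than near summits per Mb, with far densities between 3.13 on chromosome 3 and 5.69 on chromosome 9. Counts of far summits ran from 43 on chromosome 19 to 247 on chromosome 1. Soft-masked repeats took up 39.1% of the far sequence and 38.4% of the near sequence, so the repeat content of the 2 territories was similar. Their content of exact matches to the core consensus was not, at 1.04 per Mb of far and 4 per Mb of near sequence. With tissue from many cells, a site bound in fewer nuclei and a site bound more weakly in all nuclei cannot be told apart.

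**Figure D1:**
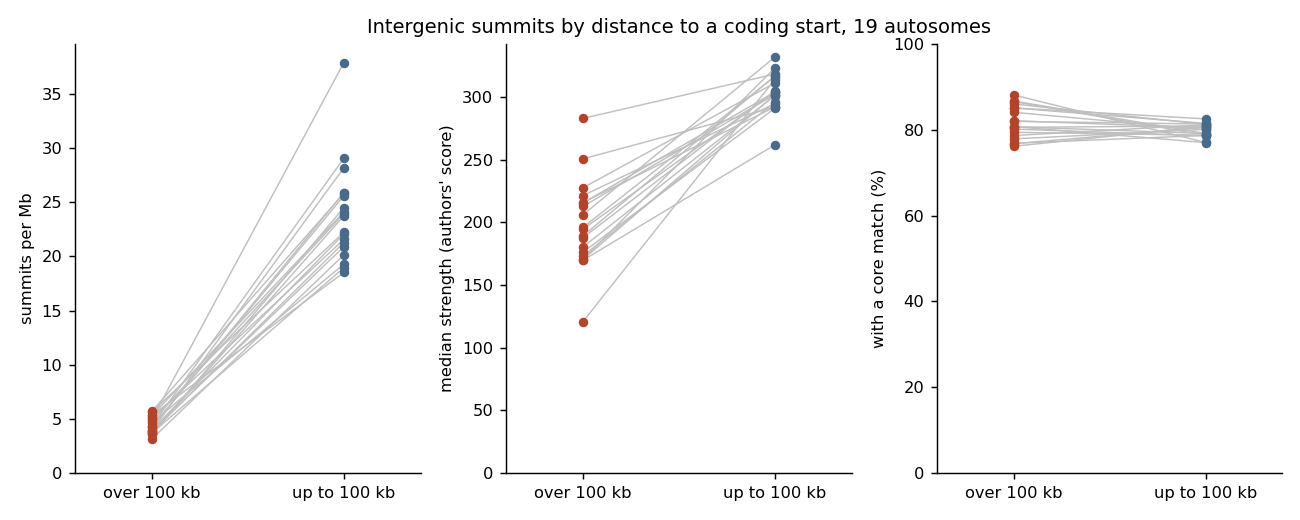
Summits per Mb, median peak strength and share of summits with a core match for intergenic summits over 100 kb (left, red) and up to 100 kb (right, blue) from a protein-coding start; each point is 1 autosome and lines join the values of 1 autosome. Density and strength were lower for the far summits on all 19 autosomes, while the motif shares overlapped.

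Far summits were weaker. Their median strength, the authors' score for a peak on a scale that was not stated, was 201 (quartiles 104 and 374), against 304 (quartiles 138 and 468) for near intergenic summits. The difference of -103 was negative on 19 of 19 autosomes, ranging from -193 to -35.3 (exact two-sided sign test over autosomes, Benjamini-Hochberg adjusted p = 6.1e-06 over the 8 differences tested). Against all other autosomal summits, those inside genes included (genic median 225), the difference was -50.9, negative on 17 of 19 autosomes. Among summits above the list's median strength it was -50.5, negative on 19 of 19. Autosomes of the same libraries are not replicate animals, so these tests measure agreement along the genome. The individual strengths overlapped widely: far summits ran from 11.5 to 648 and near summits from 11.9 to 684. When all autosomal summits were ranked by strength into 10 classes of equal size, the far ones made up 8.12% of the weakest class, 7.24% of class 5 and 3.51% of the strongest class.

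Strength declined further with distance among the members themselves. The median was 217 for the 1460 summits 100 to 200 kb from a coding start, 195 for the 1098 at 200 to 500 kb, 154 for the 242 at 500 kb to 1 Mb and 122 for the 54 beyond 1 Mb. Within 100 kb it was 306 up to 10 kb, 314 from 10 to 50 kb and 267 from 50 to 100 kb. The 100 kb limit falls inside this gradient: the 2 members closest to it, at 100020 bp (toward Cypt12) and 100030 bp (Ralgapa2), had strengths of 197 and 488, and the 2 summits closest to it on the other side, at 99969 bp (Tspan5) and 99924 bp (Gda), had 353 and 446.

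**Figure D2:**
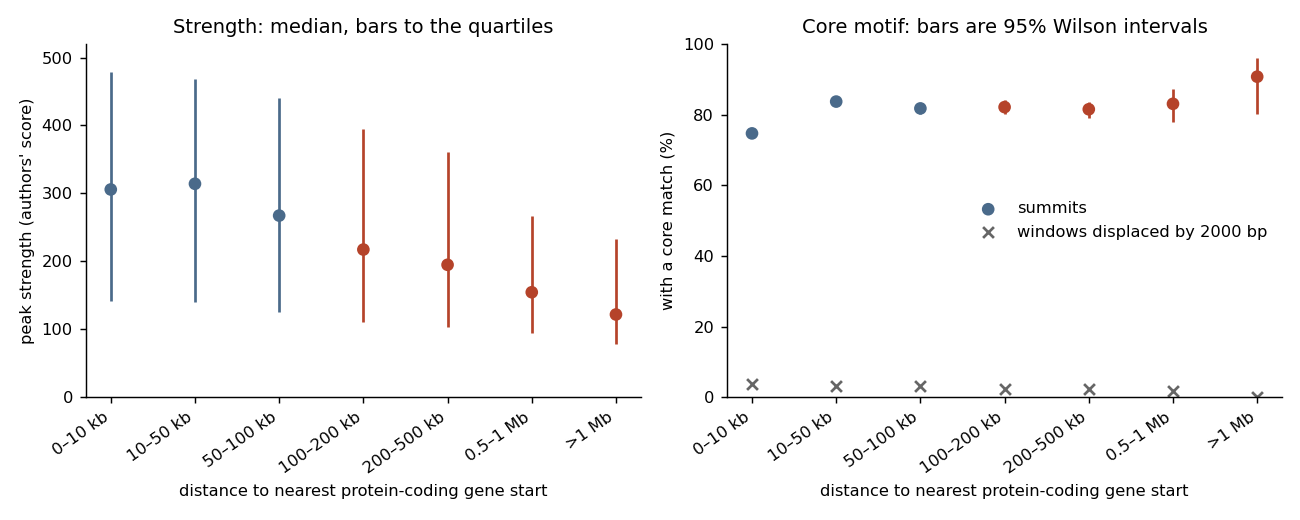
Left, median peak strength with bars to the quartiles; right, share of summits with a core match with 95% Wilson intervals, and the share in windows displaced by 2000 bp (crosses), by distance of an intergenic summit to the nearest protein-coding gene start (blue up to 100 kb, red over 100 kb). The median strength was 217 at 100 to 200 kb and 122 beyond 1 Mb, while the motif share stayed above 81% in all 4 classes over 100 kb.

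Most far summits held the CTCF motif. A core match with at most 2 mismatches, its centre within 50 bp of the summit on either strand, was present at 2344 of 2854 far summits (82.1%, 95% Wilson interval 80.7 to 83.5%) and at 79.9% of near ones (79.2 to 80.6%). Over all autosomal summits the share was 77.6%. The difference of 2.25 percentage points did not pass the test (higher on 13 of 19 autosomes, exact two-sided sign test, adjusted p = 0.167). It was -1.07 points when the reference was limited to summits 10 to 100 kb from a start, of which 83.2% had a match. Windows displaced by 2000 bp held a match at 2.15% for far and 3.39% for near summits. By distance the far share was 82.1%, 81.5%, 83.1% and 90.7%, the last with 49 of 54 summits beyond 1 Mb (80.1 to 96%).

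Strength was lower in far summits at each number of mismatches. Among far summits 14.2%, 35.7% and 32.2% had 0, 1 and 2 mismatches, against 14%, 33.9% and 32% of near summits. Median strengths at 0 mismatches were 364 for 405 far and 459 for 1890 near summits. At 1 mismatch they were 245 for far and 356 for near summits, at 2 mismatches 165 for far and 238 for near, and with 3 or more 125 for far and 186 for near. Within the core, far motifs had T at position 5, counted from the 5′ end, in 40% and near motifs in 31.8%; at position 9, T stood in 39.7% of far and 32.4% of near motifs. A CpG step, the target of DNA methylation in mammals, occurred inside the core of 731 far motifs (31.2%), against 38.4% of near motifs. The consensus allowed C or T at position 5, so A there, in 21.3% of far and 27.5% of near motifs, counted as a mismatch. A summit without a match may therefore hold another form of the CTCF motif, which was not searched for. The effect of this on the far and near motif shares was not tested. These base shares are descriptions and were not tested.

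The surroundings of far summits were less GC-rich, and the summit base lay less often in a repeat. The median GC content of the 300 bp around the summit was 45% for far and 48% for near summits, lower on 19 of 19 autosomes (exact two-sided sign test, adjusted p = 6.1e-06). CpG steps in those 300 bp averaged 3.65 at far and 6.29 at near summits. The summit base lay in a soft-masked repeat at 406 far summits (14.2%, 13 to 15.6%), against 19.1% of near summits (18.4 to 19.8%), lower on 17 of 19 autosomes (exact two-sided sign test, adjusted p = 0.000833). That difference had the same sign, at -4.69 points, but no longer passed the test when distance was taken from the starts of all annotated genes, which left 453 far summits. GC content over 100 kb around the summit had a median of 42% for far and 45.4% for near summits. Median strength was lower in far summits within every class of local GC. At 40 to 42% the medians were 228 for 654 far and 273 for 1546 near summits, and above 46% they were 192 for 406 far and 329 for 5914 near summits. Below 38% they were 167 for 247 far and 210 for 122 near summits. The near medians were higher in each class of higher GC, and the far medians were not.

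Exact core sites were rarer in far sequence and less often bound. There were 690 exact matches in far sequence, 1.04 per Mb, against 2281 or 4 per Mb in near sequence. A summit lay within 50 bp of 406 far sites (58.8%, 55.1 to 62.5%) and of 1892 near sites (82.9%, 81.3 to 84.4%), with 79.5% over all autosomal exact sites. The far share was lower on 19 of 19 autosomes, by 1.66 to 57.4 points (exact two-sided sign test, adjusted p = 6.1e-06). The bound share of these exact matches, which can still differ at the positions that allow a pair of letters, was lower in each farther class: 67.1% of 313 sites at 100 to 200 kb, 58.7% of 254 at 200 to 500 kb, 40% of 100 at 500 kb to 1 Mb and 30.4% of 23 beyond 1 Mb (15.6 to 50.9%). Up to 100 kb the classes lay between 80 and 83.8%.

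The bound share was lower at far sites inside and outside repeats and in every class of local GC content. Outside soft-masked repeats 64% of 578 far sites and 84% of 2042 near sites were bound; inside repeats 32.1% of 112 far and 74.1% of 239 near sites were. In sequence of under 38% GC over 100 kb, 38.5% of 96 far sites (29.4 to 48.5%) and 69.2% of 26 near sites (50 to 83.5%) were bound. Above 46% GC, 67.5% of 77 far sites (56.5 to 76.9%) and 85.3% of 1000 near sites (83 to 87.4%) were. At 40 to 42% GC the intervals overlapped, with 63.2% of 152 far sites (55.3 to 70.4%) and 72.7% of 282 near sites (67.2 to 77.6%). Of the 284 far sites without a summit, 78 (27.5%) still had a candidate peak in the longer ranked list that failed its reproducibility threshold, and 206 had none. Near sites without a summit numbered 389, of which 38.8% had such a candidate. The unbound site printed above, 2390 kb from a coding start, had no candidate.

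**Figure D3:**
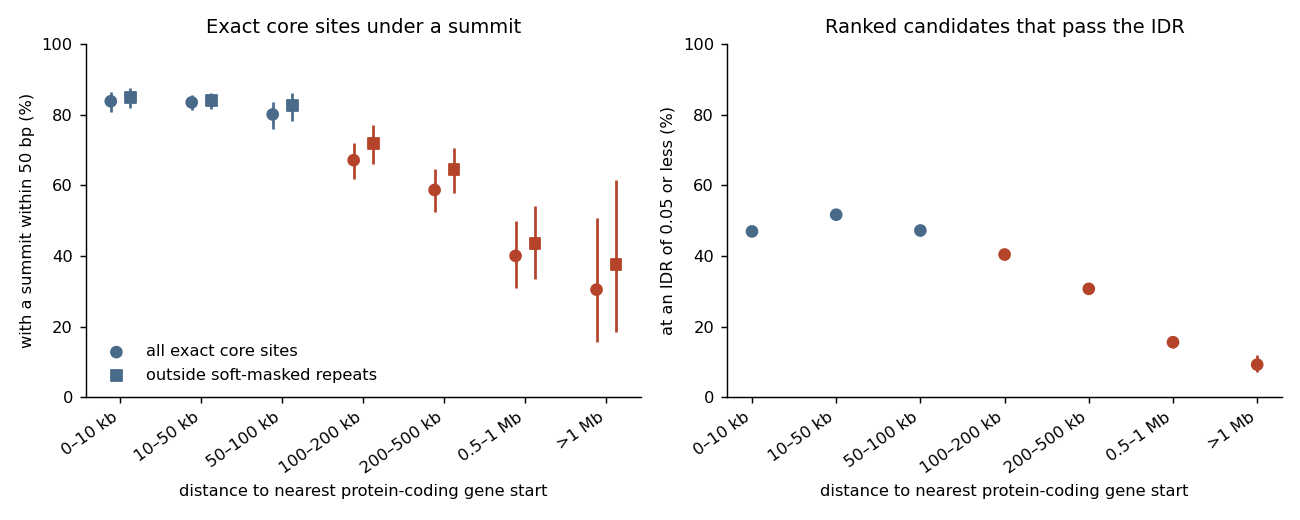
Left, share of exact core sites with a summit within 50 bp, for all sites (circles) and those outside soft-masked repeats (squares); right, share of ranked candidate peaks at an IDR of 0.05 or less; both by distance to the nearest protein-coding start (blue up to 100 kb, red over 100 kb), with 95% Wilson intervals. Both shares were lower with each step past 100 kb, down to 30.4% of exact sites and 9.2% of candidates beyond 1 Mb.

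Candidate peaks far from genes failed reproducibility more often. The irreproducible discovery rate (IDR) compares the order of peaks between 2 inputs, and the conservative list keeps those at 0.05 or less. Of 9339 far candidates 2854 passed (30.6%, 29.6 to 31.5%), against 49% of 27626 near candidates and 41.2% of all autosomal candidates. The share was lower on 19 of 19 autosomes (exact two-sided sign test, adjusted p = 6.1e-06). It was 40.4%, 30.7%, 15.6% and 9.2% in the 4 distance classes past 100 kb. Candidate strength moved with it. Candidates of strength up to 50 made up 65.5% of the far and 46.2% of the near ones, and 0.556% of those far candidates and 1.03% of those near candidates passed. At strengths of 50 to 100 the shares passing were 61.9% for far and 61.7% for near candidates, and above 200 they were 99% for far and 97.8% for near. Among candidates that failed, a core match was present in 22.1% of 6485 far and 32.8% of 14087 near ones, against 82.1% of far candidates that passed.

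Far summits were also weaker in each pool's own list. The pool E list held 3555 far summits with a median strength of 98.2, against 153 for its near summits, and 78.2% of far and 76.3% of near ones had a core match. The pool F list held 2158 far summits with a median strength of 89.3, against 128 for near ones, and 85% of far and 81.8% of near ones had a match. Of the far summits in the conservative list, 1765 (61.8%, 60 to 63.6%) had a pool F peak at a reciprocal overlap of 50%, against 70.9% of near summits and 66.2% of all. This was lower on 19 of 19 autosomes (exact two-sided sign test, adjusted p = 6.1e-06). Among summits above the median strength of the list, 88.2% of far and 89.2% of near summits had a pool F partner, and the difference no longer passed the test. At a reciprocal overlap of 80% the direction turned, with 9.95% of far and 7.73% of near summits. The median peak width in the pool F list was 304 bp for far and 232 bp for near summits.

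A pool E partner at 50% was present for 87.1% of far and 88.6% of near summits, with 87.7% over all; that difference, lower on 13 of 19 autosomes, did not pass the same test. Counting any overlap, 97.2% of far summits had a pool E peak and 74.8% a pool F peak, against 95.4% and 82.9% of near summits. In the strongest of the 10 strength classes, 45 of 144 far summits had no overlapping pool E peak, leaving 68.8% with one, against 72.9% of near summits of that class. In classes 3 to 7 every far summit had one. The pool E list thus left out some of the strongest sites. In the ranked list behind the conservative one, strengths in the first input, 95.9% of which recur in the pool E list, had a median of 139 for far and 204 for near summits; in the second input, 78.8% of which recur in the pool F list, the medians were 60 for far and 100.1 for near. The median log2 ratio of first over second input was 1.1 for far and 0.96 for near summits (SD over summits 0.36 for far and 0.40 for near).

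Far summits were more isolated. The nearest other summit of the list lay at a median of 31877 bp, against 8214 bp for near intergenic summits. It was more than 100 kb away for 608 far summits (21.3%) and for 2.23% of near ones. Beyond 1 Mb from a coding start, 39 of 54 summits (72.2%) had no other within 100 kb.

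Neighbouring far motifs seldom faced each other. A pair is convergent when the left motif reads rightward and the right motif leftward, tandem when both read the same way and divergent when they read apart. Among 793 pairs of motif-bearing neighbours 10 to 200 kb apart, both far and between the same consecutive coding starts, 135 were convergent (17%, 14.6 to 19.8%). Among the 20476 other neighbouring pairs at that spacing 26% were (25.4 to 26.6%). These other pairs include summits inside genes and pairs with a coding start between them. Near intergenic pairs within an interval were not compared separately. Distance from coding starts therefore cannot be told apart from lying in the same interval or outside genes. The far share was lower on 17 of 19 autosomes (exact two-sided sign test, adjusted p = 0.000833). Tandem pairs made up 60.2% of far pairs (56.7 to 63.5%) and 49.6% of the others, while divergent pairs made up 22.8% of far and 24.4% of other pairs. The median spacing was 49109 bp for far and 38810 bp for other pairs.

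The difference in convergent share was larger at wider spacing. At 10 to 50 kb 16.2% of far and 22.6% of other pairs were convergent, at 50 to 100 kb 17.4% of far and 29.5% of other pairs, at 100 to 200 kb 18.5% of far and 34.2% of other pairs, and at 200 to 500 kb 20.5% of 156 far (14.9 to 27.5%) and 38.9% of 1487 other pairs. The other pairs include 1173 with a single far member at 10 to 200 kb, of which 21% were convergent (18.7 to 23.4%). At 200 to 500 kb that share was 34.4% of 477 pairs, against 20.5% of pairs of far motifs.

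Motif direction also followed the space around a summit. Of 2336 far motifs with a summit on both sides, 1387 (59.4%, 57.4 to 61.3%) read toward the wider of their gaps, between 51.5 and 66.1% on all 19 autosomes. Near motifs did so in 55.7% (54.8 to 56.7%), and the difference between the shares was not tested. With a wider gap of up to 50 kb the far share was 50.2% (46.1 to 54.3%), at 50 to 200 kb 58.4% and over 200 kb 66.9% (63.6 to 70.1%). For near motifs these shares were 52.1%, 61.1% and 61.4%. Across an interval between consecutive coding starts, the share of far motifs on the plus strand was 65.8% of 284 in the leftmost of 5 equal parts, 54.7%, 51.2% and 46.8% in the next 3 and 40.5% of 242 in the rightmost part. In the outermost parts 331 of 526 motifs (62.9%, 58.7 to 66.9%) thus read into the interval, over 50% on 18 of 19 autosomes, and the share was 61.2% by the peaks of pool E and 65.6% by those of pool F. Members lie over 100 kb from both starts, so only intervals over 500 kb can hold any in their outermost parts. The middle part also draws on shorter intervals, so the parts do not compare the same intervals. Over the whole interval 55.1% of 2335 far motifs (53.1 to 57.1%) read toward its middle, against 55% of 1312 near motifs of the same intervals (52.3 to 57.6%); among far motifs over 500 kb from a start the share was 50.8% of 250. The first and last far motifs of an interval read apart more often than toward each other. Of 567 intervals with at least 2 far motifs, they were convergent in 87, tandem in 316 and divergent in 164. These motifs can also belong to the neighbouring pairs above, so this count is not independent of those. The first and last need not lie on opposite sides of the interval's middle.

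**Figure D4:**
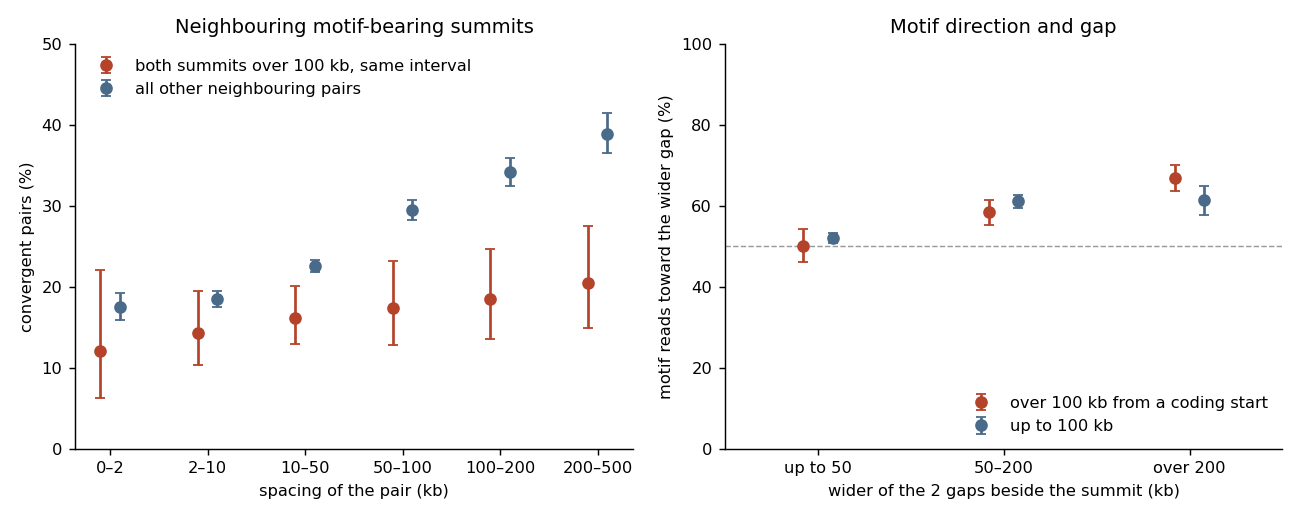
Left, share of convergent pairs among neighbouring motif-bearing summits by spacing, for pairs of far summits in 1 interval (red) and all other pairs (blue); right, share of motifs that read toward the wider of the gaps beside the summit, for far (red) and near (blue) intergenic summits, with 95% Wilson intervals and a dashed line at 50%. Far pairs reached 20.5% convergent at 200 to 500 kb where other pairs reached 38.9%, and far motifs beside a gap over 200 kb read toward it in 66.9%.

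The members were spread over many intervals. Of 1789 stretches between consecutive coding starts that contain far sequence, 1031 held at least 1 member, 376 held exactly 1 and 16 held 10 or more; 9 members lay between the last coding start and a chromosome end. The 174 intervals with at least 5 members held 1155 of them. Density declined as intervals lengthened, with 10.6 members per Mb of far sequence in the 945 intervals up to 500 kb, 6.23 in those of 500 kb to 1 Mb, 3.56 in those of 1 to 2 Mb, 1.42 in those of 2 to 3 Mb and 1.24 in the 36 over 3 Mb. The far sequence of short intervals also lies closer to a coding start, so interval length and distance cannot be told apart here.

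The fullest interval, with 17 members, ran 1758 kb from Olfr1507, an olfactory receptor gene, to Dad1, a subunit gene of the oligosaccharyltransferase, on chromosome 14. It contains the T cell receptor alpha segments, which the annotation does not class as protein-coding, and all 17 members lay within 100 kb of a receptor segment. In the whole set 30 members (1.05%) lay that close to an immunoglobulin or T cell receptor segment, and all 30 had a core match. The 17 motifs stood 15 on the plus and 2 on the minus strand, and the first 12 from the left all read rightward, toward Dad1. Strengths ran from 64.6 to 531 with a median of 154, and the 5 members closest to Dad1 had the 5 highest strengths of the interval.

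The next intervals held 11 to 15 members each. Matn1, a cartilage matrix gene, to Ptpru, a receptor phosphatase gene, on chromosome 4 held 15 members in 894 kb with a median strength of 188. Med13l to Tbx3, a T-box factor of heart and limb, on chromosome 5 held 14 with a median of 106 and a maximum of 602. Mki67, the Ki-67 proliferation antigen gene, to Mgmt, a DNA repair gene, on chromosome 7 held 14, of which 8 had a motif. The stretch from 1700056E22Rik to Hlx, a homeobox gene, on chromosome 1 held 12 in 698 kb, and Tshz3 to Zfp536, a pair of zinc-finger genes, on chromosome 7 also held 12, of which 8 had a motif. Tgfbr2, a receptor for transforming growth factor beta, to Rbms3 on chromosome 9 and Sdk2 to Rpl38 on chromosome 11 held 11 each. Their strands were mixed, with 5 plus and 8 minus motifs in Matn1 to Ptpru, 6 plus and 7 minus in Med13l to Tbx3, 4 plus and 6 minus in Sdk2 to Rpl38, 7 plus and 3 minus in the Hlx interval and 2 plus and 6 minus in Tshz3 to Zfp536.

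**Figure D5:**
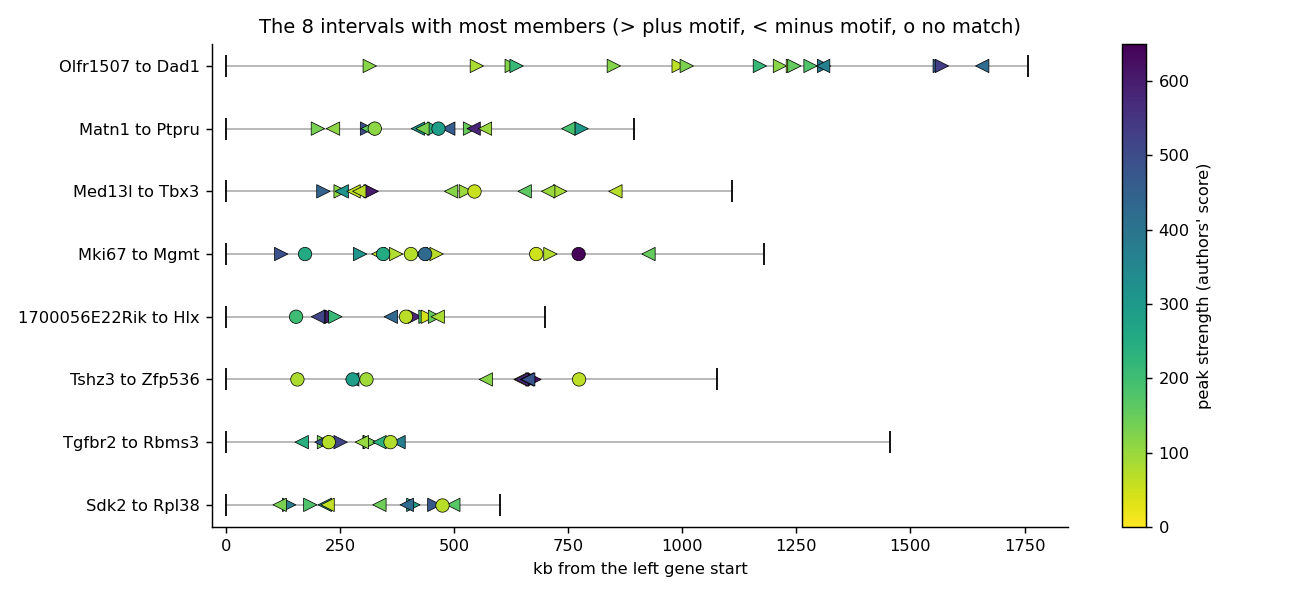
Positions of far summits in the 8 intervals with most members, in kb from the left coding start; arrowheads give the direction of the core motif, circles mark summits without a match, vertical ticks the flanking gene starts and colour the peak strength. The Olfr1507 to Dad1 interval shows 12 rightward motifs in a row, and the other intervals mix both directions.

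Some of the longest intervals held almost no members. Cntnap5b to Cdh20, a neuronal contactin-associated gene and a cadherin gene, spanned 4996 kb on chromosome 1 with 1 member of strength 84.9. Kcnv1, a potassium channel gene, to Csmd3 on chromosome 15 spanned 3677 kb with none. Ppp6c to Lrp1b, a lipoprotein receptor gene, on chromosome 2 spanned 3427 kb, also with none. In that order, these intervals held 3904, 2233 and 1255 kb of far sequence, where alone a member can lie. Summits inside genes or within 100 kb of a coding start were not counted there. Of the 356 intervals over 1 Mb, 69 held no member, and the 36 over 3 Mb held between 0 and 10.

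The strongest far summit had a strength of 648 and lay between Svil, the gene of the actin-bound muscle protein supervillin, and Zfp438 on chromosome 18, 173 kb from Zfp438; it ranked 37 of 41000. The next, at 644, lay 405 kb from Mgmt in the Mki67 interval and had no core match. Chd7 (a chromatin remodeller) to Clvs1 followed at 642 and Adamts16 to Irx1 (an Iroquois homeobox factor) at 636, 505 kb from the start of Irx1. Of the others, Rgs3 to Zfp618 had 630, Tshz3 to Zfp536 had 629, Eya2 (a coactivator active in muscle precursors) to Zmynd8 had 628, Fam49a to Mycn (a Myc family factor) had 625 and Tbc1d1 to Klf3 (a Krüppel-like repressor) had 623. All of the 10 strongest lay outside soft-masked repeats and overlapped a pool F peak, and 3 overlapped a pool E peak, although strengths of 352 to 371 were listed for them in the first input. The other strongest summits without a match lay between Gli3 and Inhba (597) and between Abra and Angpt1 (571).

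The 5 summits farthest from a coding start had strengths on both sides of the far median of 201. A pair between Celf4 and Pik3c3 on chromosome 18, 2195 and 2083 kb from a coding start, had strengths of 255 and 58.4, and Pcdh20 to Pcdh9 on chromosome 14, 1962 kb away, had 266. Slc39a10 to Tmeff2 on chromosome 1 (1816 kb) had 130 and Tenm2 to Mat2b on chromosome 11 (1702 kb) had 49.9. All 5 had a core match with at most 2 mismatches and overlapped a pool E peak; 3 of them overlapped a pool F peak.

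By the rule that chose the members, the nearest start of any annotated gene can be no farther than the nearest coding start. It was at a median of 35367 bp, and belonged to a long noncoding RNA gene for 1064 members (37.3%), a pseudogene for 978 and a small RNA gene for 498. These counts are descriptions, since the shares of these classes among all annotated starts were not compared. Within 5 kb of any start lay 288 members with a median strength of 186; the 1094 more than 50 kb from any start had a median of 202 and a motif share of 83% (80.7 to 85.1%).

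The 4 lists of genes were counted by the far summits beside them. Over all 20780 autosomal protein-coding genes, 8.85% had at least 1 member in an interval beside their start. Among neuronal adhesion and axon guidance genes 67 of 77 (87%, 77.7 to 92.8%) did, among developmental regulators 63 of 109 (57.8%, 48.4 to 66.6%), among muscle lineage and fibre regulators 15 of 43 (34.9%, 22.4 to 49.8%) and among housekeeping genes 0 of 36 (0 to 9.64%). A gene can have a member beside it only where it borders far sequence, and the lists differed in this. Over all 20780 genes 2969 bordered some, and 1838 of these had a member. Among developmental regulators 84 of 109 bordered some, and among muscle regulators 20 of 43. Of the adhesion genes 76 of 77 did, with a median of 1.86 Mb, and of the housekeeping genes 1 of 36. The shares above therefore also count genes that could not have a member. Per Mb of bordering far sequence, counted once per gene, adhesion genes had 1.61 members, developmental regulators 6.04 and muscle regulators 7.39, against 4.29 for all genes. The muscle value rests on 20 genes. Density declined as intervals lengthened, and median bordering far sequence was 0.293 Mb for developmental regulators and 0 for muscle regulators. The lists were not compared at equal interval length, so list and interval length cannot be told apart. Genes that share an interval share its members, so the genes of a list are not independent.

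Tshz3 had 19 members in its bordering intervals, Tbx3 14 and Hlx 12, while Shh, the Sonic hedgehog signal, had none in 0.162 Mb of far sequence. Of the muscle regulators, Sox6, a repressor of slow-fibre genes in fast fibres, bordered 8, Ppargc1a, the coactivator of mitochondrial biogenesis, 7 and Rora, a nuclear receptor, 6. Myf5, the early myogenic factor, bordered no far sequence. Of the adhesion genes, the ephrin receptor gene Epha4 bordered 12 in 1.92 Mb, Flrt2 10 in 5.92 Mb and the protocadherin gene Pcdh7 10 in 6.84 Mb, and Pcdh8 bordered no far sequence. Actb, Gapdh and Tbp, of the housekeeping genes, bordered no far sequence either.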

How the data were processed

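Peak lists came from 4 CTCF ChIP-seq libraries of 2 pools; per the labels the build is mm10 and technical replicates share a pool. The aligner and peak caller are not given in the sources used here. The authors deposited for each peak a strength score, a summit offset (score and offset as deposited) and, in the ranked list, the −log10 of the IDR. Read depth is unknown, since no list gives counts, and strengths were used only within a list.

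Summits on the 19 autosomes were placed with GENCODE M21 (55450 genes). Core matches, GC content and soft-masked repeats were read from GRCm38 with Python 3.11.15, numpy and scipy. The 8 differences were tested with an exact two-sided sign test over autosomes and Benjamini-Hochberg adjustment; shares carry 95% Wilson intervals that hold counting error alone. Search and tests were checked on simulated data. The pair of pools allows no test between animals. Members and gene lists were chosen with earlier results of these data known. Named items followed 1 rule: the 10 strongest and 5 farthest summits, the 3 strongest without a match, 2 on each side of 100 kb, the 8 fullest intervals and the 3 longest with at most 1 member, and per gene list the top 3 genes and the first with none. Other lists of the series were not used. Some items that the rule names are not reported here.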

Additional observations from a re-analysis of the deposited data

How the results depend on the processing

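Of 108 alternatives over 10 results, 88 kept direction and side of the threshold, or stayed within the counting interval or 1.5 times the count. Lower strength, GC content, bound share of exact core sites, IDR pass share and convergent share held in every alternative run for them, including other distance limits and, except for the IDR pass share, the lists of single pools. The motif difference passed the test at 2.43 points with a 50 kb limit, 4.06 above the median strength and 4.85 against all other summits, and turned to -1.07 against summits 10 to 100 kb from a start, a reference added after seeing the data. The masked-repeat difference was -4.69 points from all gene starts and missed the threshold. The pool F partner difference was -1.06 points above the median strength and -1.55 with pool E partners, both short of the threshold, and 2.22 at an overlap of 80%. The density ratio was 0.193 in the combined list, 0.195 in the pool E list, 0.162 in the pool F list, 0.219 at 50 kb, 0.144 at 200 kb, 0.168 with all coding transcript starts, 0.134 above the median strength and 0.194 outside repeats. The number of far summits was 4959 at 50 kb, 1394 at 200 kb, 453 from all gene starts and 1209 above the median strength. The cause was not tested for any of these shifts, apart from the smaller or larger sets that the limits themselves produce. No paired analysis was possible because the technical replicates that share a number are merged in every list. Depth is unknown, so a site without a summit may be bound below detection.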
